A study of Arabidopsis thaliana with 4 samples.

Results

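The genes described here are GAMMA-VPE, ALPHA-VPE, NOL, SAG101, APG8A (also called ATG8A) and PPDK, which take part in the breakdown of protein, pigment and membrane lipid and in the reuse of carbon and nitrogen when a leaf ages. They were chosen by name, as the probe sets that the platform annotation pairs with exactly 1 of these genes. Each has 1 such probe set, so there are 6 among the 13513 single-gene probe sets and the 22746 non-control probe sets of the array. All 6 passed the filter on low values (a log2 value of at least 4 on at least 2 arrays), as did 19883 probe sets in all. Their loci are AT4G32940 (GAMMA-VPE), AT2G25940 (ALPHA-VPE), AT5G04900 (NOL), AT5G14930 (SAG101), AT4G21980 (APG8A) and AT4G15530 (PPDK).

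The series measured RNA on Affymetrix ATH1 arrays from whole rosettes of soil-grown Arabidopsis thaliana, C24 background, aged 46 days. All plants carried a construct for inducible overexpression of ORS1, a transcription factor of the NAC family that is known to promote the ageing of leaves. The DEX group, 2 arrays, was sprayed with 30 µM dexamethasone, a steroid that switches the construct on, and the mock group, 2 arrays, with 0.05% ethanol. Rosettes of both groups were harvested 5 h later. Plants without the construct were not analysed here, so a response to the steroid itself cannot be told apart from a response to ORS1, and the sources used here do not give the construct's promoter, the number of lines or the number of plants behind each array. The arrays are labelled as biological replicates, and the p-values measure the spread between these samples only.

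A senescing leaf takes itself apart in order. Chlorophyll is degraded in the plastid, autophagy and vacuolar proteases turn over proteins, and the freed carbon and nitrogen are converted to transport forms and exported to growing organs. Many genes of this programme are known to be expressed late in leaf development, downstream of transcription factors such as the NAC family. The comparison asks whether their transcripts were already higher 5 h after ORS1 was switched on.

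None of the 6 rose. No gene passed the test in either direction (limma, 0 of 6 at an adjusted p under 0.05), where 0.448% of all tested probe sets passed, 0.246% as higher and 0.201% as lower. At an unadjusted p under 0.05 stood 1 of 6, GAMMA-VPE, and 8.78% of all tested probe sets. The changes, DEX minus mock in log2 units, ran from -0.93 for GAMMA-VPE to 0.11 for APG8A, with 4 negative, 2 positive and a median of -0.12 against -0.012 over all tested probe sets. The groups did not overlap for GAMMA-VPE, NOL and PPDK, all lower after DEX. Over all tested probe sets 38.0% did not overlap, 18.1% as higher and 19.8% as lower. The 95% intervals, which use the moderated variance, leave room for a rise of at most 1.67-fold, for APG8A. The limits were 1.08-fold for PPDK, 1.20-fold for ALPHA-VPE and for NOL and 1.39-fold for SAG101. With an unmoderated variance, on 2 residual degrees of freedom, the SE of the APG8A change was 0.40 log2 units rather than 0.27. That of SAG101 was 0.23 rather than 0.20, so both intervals are wider and leave room for larger rises. The SE of NOL was smaller, 0.040 rather than 0.19. ALPHA-VPE stood close to the filter level of 4, where differences are understated. For GAMMA-VPE the whole interval lay below equality, from 0.37 to 0.75 of the mock level. In whole rosettes, fewer cells of a type and less RNA per cell cannot be told apart.

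**Figure D1:**
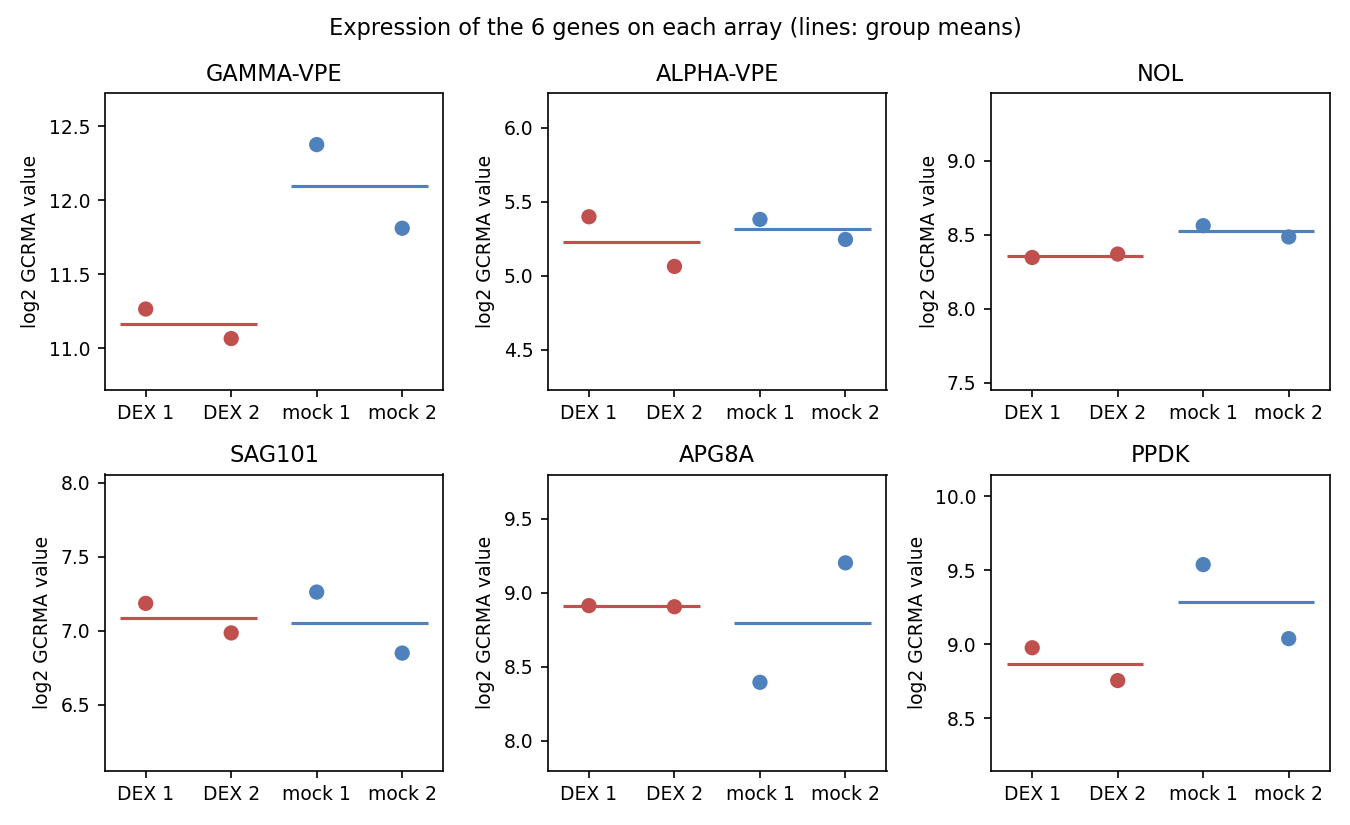
Log2 GCRMA value of each gene (vertical axis, a span of 2 log2 units in every panel) on the 4 arrays, with DEX in red, mock in blue and group means as lines. GAMMA-VPE is lower on both DEX arrays than on either mock array, whereas the mock values of APG8A, 8.39 and 9.20, lie on either side of its DEX values.

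The arrays themselves were uneven. Over the tested probe sets the difference between the mock arrays had an SD of 0.37 log2 units and that between the DEX arrays 0.21. Across 11311 nuclear genes with a length in the RefSeq table, which are not independent replicates, mock replicate 1 minus mock replicate 2 was larger for longer genes (r = 0.534 and rho = 0.594 against log2 length, Pearson and Spearman), and the DEX difference did not (r = -0.036, rho = -0.030). The 6 photosynthetic genes of the leaf markers that could be measured (RCA, LHCB4.1, LHCB4.2, PSAN, PSBW and PSBY) stood at 11.48 to 13.42 on all arrays. Of 3 root markers, EXPA7 stood at 5.72 to 5.98 and PYK10 at 8.92 to 9.67, with the lowest value of PYK10 on mock replicate 2. The other root marker, PIP2-4, and the flower markers AP3, PI and AG had no probe set with that single gene. The part of root or flower RNA in the results was not tested. The annotation used here pairs no probe set with ORS1, alone or among several genes, and the level of the induced gene was not analysed here.

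The vacuolar processing enzymes are cysteine proteases that cut after asparagine and aspartate residues and thereby activate other vacuolar proteins. GAMMA-VPE, the form best known from leaves, stood at 11.26 and 11.07 on the DEX arrays and at 12.38 and 11.81 on the mock arrays. Both DEX values were below both mock values, by at least 0.55 log2 units. The group means were 11.17 ± 0.14 and 12.09 ± 0.40 (SD, n = 2), a change of -0.93 ± 0.22 (SE; 95% interval -1.44 to -0.42), or 1.90-fold lower. Its p was 0.00298 unadjusted and 0.19 adjusted over all probe sets (limma), so it did not pass. Only 0.392% of tested probe sets had a lower change. Mock replicate 1 carried its highest value, 0.75 above the mean of the 4 arrays. Without mock replicate 1 the change was -0.65 (adjusted p = 0.0764), and without mock replicate 2 it was -1.21 and passed (adjusted p = 0.0029), the mock group then being 1 array assumed to vary like the DEX pair. In that setting 16.0% of all tested probe sets passed.

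ALPHA-VPE, the other form known from vegetative tissue, had DEX values of 5.40 and 5.06 and mock values of 5.38 and 5.25. The groups overlapped, and the change of -0.082 ± 0.15 (SE; 95% interval -0.43 to 0.27) did not pass (limma adjusted p = 0.934). The sign depended on DEX replicate 2, without which it was 0.085. ALPHA-VPE lay close to the filter level of 4, where differences are understated. The difference between the changes of GAMMA-VPE and ALPHA-VPE, taken array by array, was -0.85 log2 units, beside -0.93 for GAMMA-VPE alone. Both DEX arrays lay below both mock arrays in that difference, which gives p = 0.333 in a two-sided exact permutation test, the smallest p that 2 arrays against 2 allow.

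The remaining genes of the enzyme family were on the list of related genes. BETA-VPE (AT1G62710), known from seeds, stood at 5.57 and 5.53 after DEX and at 6.13 and 6.17 after mock. The groups lay apart and the pairs were tight, and the change was -0.60 ± 0.13 (SE; unadjusted p = 0.002, adjusted p = 0.159, limma). With each array left out in turn, the change of BETA-VPE ranged from -0.62 to -0.58. DELTA-VPE (AT3G20210), known from the seed coat, stood at 5.14 and 5.13 against 4.98 and 5.18, a change of 0.052 ± 0.13 with overlapping groups. Like ALPHA-VPE, it lay close to the filter level of 4, where differences are understated. BETA-VPE was also dim, below the array medians of 6.51 to 6.55. GAMMA-VPE and BETA-VPE were thus the pair of the family without overlap, both lower after DEX. Over all tested probe sets 38.0% did not overlap, 19.8% as lower.

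**Figure D2:**
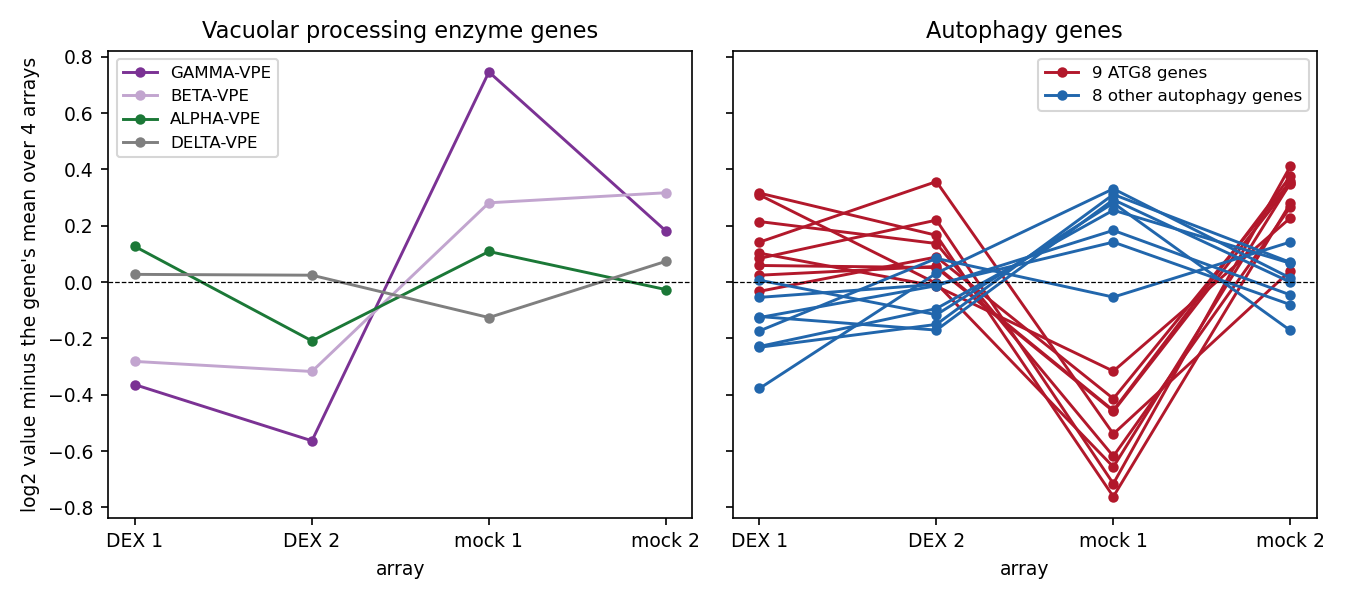
Log2 value minus the gene's own mean over the 4 arrays (vertical axis) on each array, where a line joins the values of 1 gene and the arrays have no order. The left panel holds the 4 vacuolar processing enzyme genes, and the right panel shows all 9 ATG8 genes at their lowest on mock replicate 1, from -0.76 to -0.32.

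The other proteases of the list did not pass either. Of the 15 listed beside the processing enzymes 6 were tested, and 5 of these 6 had changes of -0.37 to -0.28 without overlap between the groups, all lower after DEX. Of 19 listed proteases, the 4 processing enzymes included, 10 had a tested probe set with 1 gene. Of these 0 passed in either direction (limma), and 2 had an unadjusted p under 0.05, as did 8.78% of all tested probe sets. The median change was -0.31, with 8 negative and 2 positive, where 47.2% of all tested probe sets were positive. For 7 of the 10 the groups did not overlap, each time lower after DEX, where 19.8% of all tested probe sets did so. Among them SCPL49, a serine carboxypeptidase-like protein, had DEX values of 10.41 and 10.32 and mock values of 10.93 and 10.44 (-0.32 ± 0.22, SE). APA1, an aspartic protease, stood at 11.91 and 11.96 against 12.44 and 11.99, so that its distance from the DEX pair lay almost wholly in mock replicate 1. AT1G02300, AT1G02305 and AT4G01610, which the tables used here name by locus only, had changes of -0.29, -0.37 and -0.35. RDL1, a papain-like protease, had a change of 0.094 ± 0.15 with overlapping groups. Its values, 5.14 to 5.46, lay close to the filter level of 4, where differences are understated. Mock replicate 1 held the highest value of 6 of the 10 genes, against 39.9% of all tested probe sets. The 10 genes have lengths of 1826 to 4332 bases, RDL1 being the shortest. Of 5659 tested nuclear genes longer than 2200 bases, 57.6% were highest on mock replicate 1 and 34.9% had a positive change. For 1374 of these 5659 the groups did not overlap, lower after DEX. Without it the median was -0.12, and without mock replicate 2 it was -0.50. In the latter setting APA1, SCPL49, AT1G02305 and AT4G01610 passed as well (adjusted p of 0.0192 to 0.0331, limma), when 1388 probe sets (6.98%) passed as lower over the whole table against 40 with all arrays.

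NOL, which works with NYC1 as a chlorophyll b reductase at the entry to chlorophyll breakdown, had DEX values of 8.35 and 8.37 and mock values of 8.56 and 8.48. The DEX pair lay below the mock pair by at least 0.12 log2 units. The change was -0.17 ± 0.19 (SE; 95% interval -0.59 to 0.26), with a limma adjusted p of 0.866, and 22.8% of tested probe sets had a lower one. Of 14 genes listed for chlorophyll breakdown, 2 were tested and 0 passed (limma; 0 at an unadjusted p under 0.05). The other one, AT1G44000, stood at 9.71 and 9.55 after DEX and at 9.48 and 9.71 after mock (0.034 ± 0.20, SE). The enzymes that open the chlorophyll ring and act after it were not analysed here.

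SAG101, a lipase-like acyl hydrolase whose name comes from its expression in senescing leaves and which also partners EDS1 in immunity, had DEX values of 7.19 and 6.99 and mock values of 7.26 and 6.85. The DEX values fell between the mock values. The change was 0.030 ± 0.20 (SE; 95% interval -0.42 to 0.48; limma adjusted p = 0.992), near the middle of all tested probe sets, of which 59.1% were lower. Its sign turned when DEX replicate 1 or mock replicate 2 was left out, to -0.070 and -0.18. Of the 4 listed genes of the EDS1 family, SAG101 was the 1 tested. AT3G48080 had a probe set that did not pass the filter.

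APG8A encodes a ubiquitin-like protein that is attached to the membrane of the growing autophagosome, the vesicle that carries cytoplasm to the vacuole. Its DEX values were 8.91 and 8.91 and its mock values 8.39 and 9.20. The DEX pair had an SD of 0.0053 and the mock pair one of 0.57, and the DEX values lay between the mock values. The change was 0.11 ± 0.27 (SE; 95% interval -0.52 to 0.74; limma adjusted p = 0.96). Without mock replicate 1 it was -0.29, and without mock replicate 2 it was 0.51.

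The other ATG8 genes had a similar course across the arrays. All 9 listed ATG8 genes were tested and all 9 had a positive change, as did 47.2% of all tested probe sets. Their median was 0.30, against -0.012 over all tested probe sets. Of the 3252 tested nuclear genes in the family's length range, 59.5% had a positive change, with a median of 0.047. Of the 9 genes 0 passed (limma), and 1 had an unadjusted p under 0.05, as did 8.78% of all tested probe sets. All 9 had their lowest value on mock replicate 1, as did 30.9% of all tested probe sets and 45.3% of the 3252 tested nuclear genes with a length in the family's range of 1408 to 2200 bases. On mock replicate 1 they deviated from their own mean by -0.76 to -0.32 log2 units, whereas 15.7% of genes in that length range deviated by -0.32 or lower. ATG8I (AT3G15580) stood at 10.54 and 10.46 after DEX and at 9.70 and 10.59 after mock, and ATG8D at 8.67 and 8.35 against 7.70 and 8.71. ATG8F had 10.14 and 10.03 against 9.73 and 10.27. ATG8H, named after its values were seen, was the 1 gene of the 9 without overlap. Over all tested probe sets 18.1% did not overlap and were higher after DEX. ATG8H stood at 6.41 and 6.62 against 5.73 and 6.31 (0.50 ± 0.21, SE; unadjusted p = 0.0427, adjusted p = 0.543, limma).

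The positive changes rested on mock replicate 1. Without it 1 of 9 ATG8 genes, ATG8H, had a positive change and the family median was -0.20, whereas without mock replicate 2 the median was 0.79 and 7 of 9 passed, in a setting where 9.07% of all tested probe sets passed as higher. With the gene length trend of each array removed, all 9 were positive still, with a median of 0.26. Signal shared between the related ATG8 sequences was not tested.

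The 8 tested autophagy genes outside the ATG8 family went the other way: 0 of 8 had a positive change, 0 passed (limma), and the median was -0.22. An unadjusted p under 0.05 was found for 1 of the 8, and for 8.78% of all tested probe sets. They are longer genes, of 2753 to 4732 bases, and 7 of 8 were highest on mock replicate 1. Of the 5659 tested nuclear genes longer than the ATG8 genes, 34.9% had a positive change, with a median of -0.066. Mock replicate 1 was the highest array for 57.6% of those longer genes. ATG3, the enzyme that joins ATG8 to its lipid, stood at 8.24 and 8.37 after DEX and at 8.72 and 8.53 after mock (-0.32 ± 0.19, SE), without overlap. AT3G61960 had 8.66 and 8.61 against 9.07 and 8.78. With the length trend removed the median was -0.13, and 1 of 8 was positive. In all, 17 of the 41 listed autophagy genes were tested, and the positive and negative ones divided exactly into the ATG8 genes and the others.

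**Figure D3:**
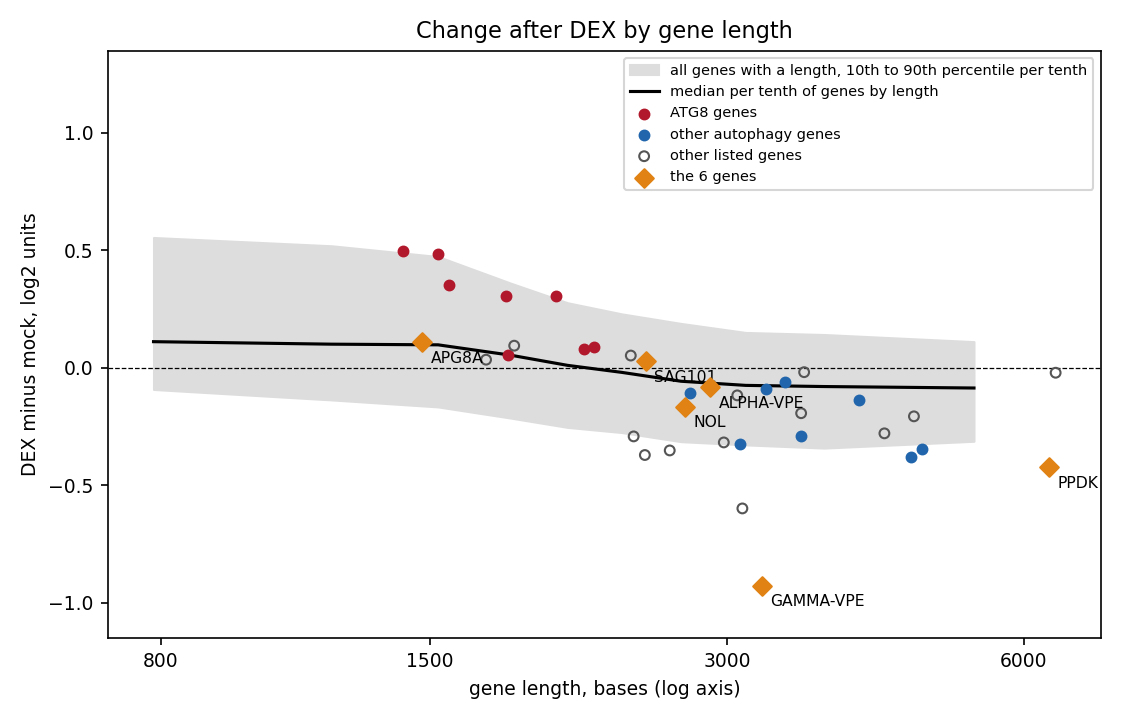
DEX minus mock change in log2 units (vertical axis) against gene length on a log axis, with the 6 genes as orange diamonds, the listed genes as circles and all genes with a length as a black median line with a grey band that holds the middle of the changes (percentiles 10 to 90) in each of 10 equal groups by length. GAMMA-VPE, at -0.93, lies far below the band for its length, and APG8A, at 0.11, lies on the median line.

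PPDK, pyruvate orthophosphate dikinase, makes phosphoenolpyruvate from pyruvate and in ageing leaves helps to turn amino acid carbon into glutamine for export. Its DEX values were 8.98 and 8.75 and its mock values 9.54 and 9.04. The groups lay apart by only 0.062 log2 units, since mock replicate 2 was close to DEX replicate 1. The change was -0.42 ± 0.23 (SE; 95% interval -0.95 to 0.11; unadjusted p = 0.105, adjusted p = 0.673, limma), or 1.34-fold lower, and 4.14% of tested probe sets had a lower one. PPDK is a long gene of 6365 bases, and the longest of 10 equal groups of genes by length had a median change of -0.086. With the length trend removed its change was -0.33. Without mock replicate 1 it was -0.17, and without mock replicate 2 it was -0.67.

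The other genes of carbon and nitrogen recycling gave no rise. Of 30 listed, 6 were tested, 0 passed (limma; 0 at an unadjusted p under 0.05) and all 6 changes were negative, with a median of -0.16. ICL, isocitrate lyase of the glyoxylate cycle, stood at 5.85 and 5.49 after DEX and at 5.77 and 5.96 after mock (-0.19 ± 0.17, SE). IVD, MCCA and MCCB, enzymes of leucine breakdown, had changes of -0.019, -0.21 and -0.12, and AT4G33150, annotated as the lysine-degrading enzyme LKR/SDH, one of -0.021. MCCA was the 1 of these without overlap, at 7.14 and 7.18 against 7.53 and 7.21, where 19.8% of all tested probe sets lay apart as lower. Mock replicate 1 was the highest array for 5 of the 6. The 6 are long genes, of 3073 to 6460 bases. Of the 5659 tested nuclear genes longer than the ATG8 genes, 34.9% had a positive change and 57.6% were highest on mock replicate 1. Glutamine synthetases, glutamate dehydrogenases and asparagine synthetases were not analysed here, and neither were the 4 listed nucleases.

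**Figure D4:**
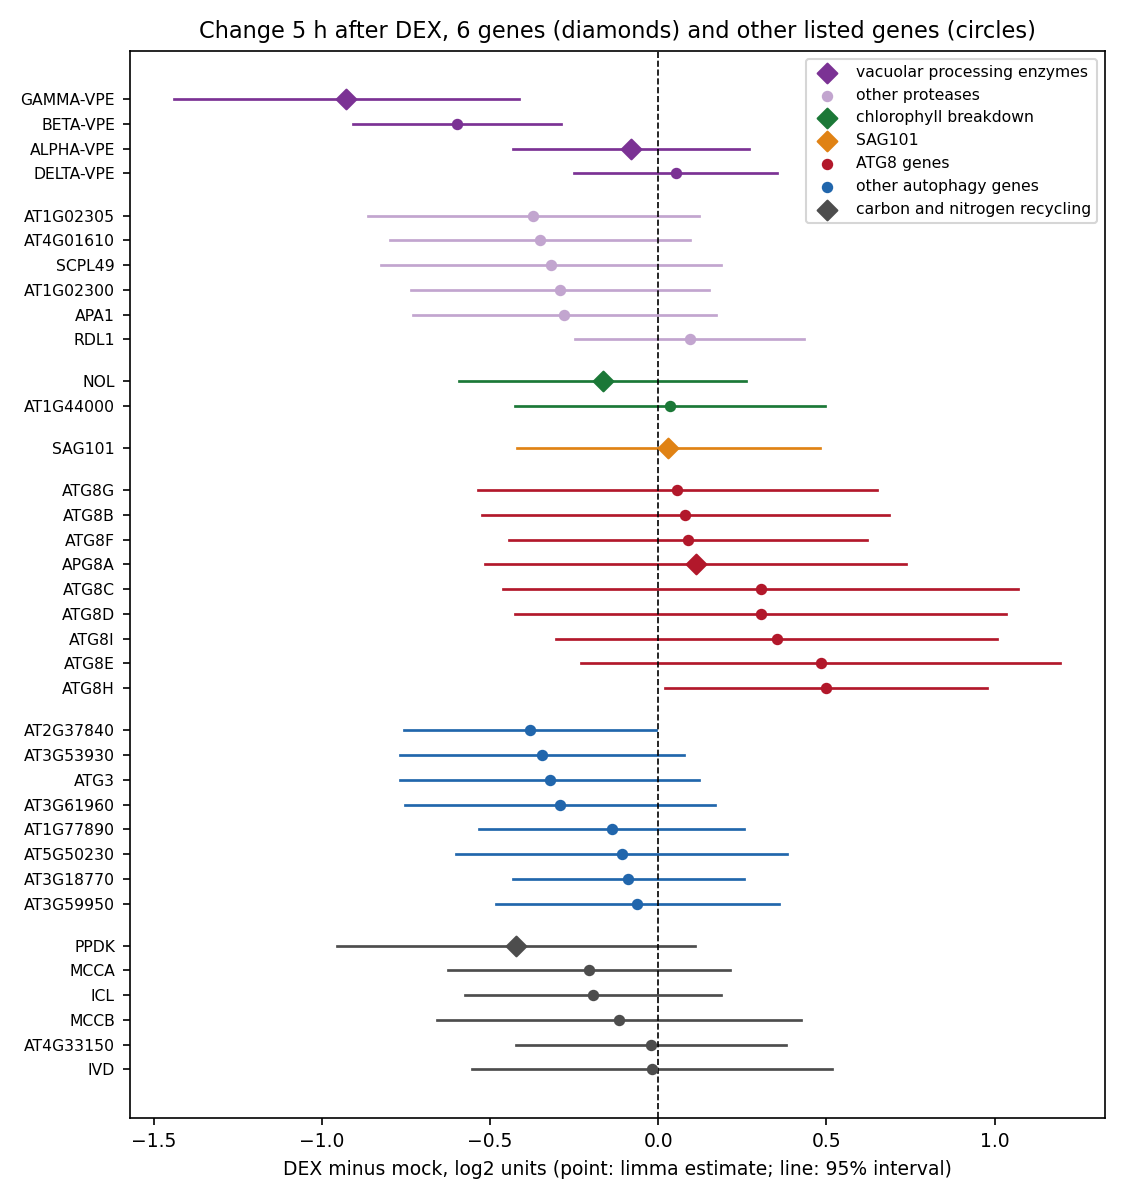
DEX minus mock change in log2 units (horizontal axis) with its 95% interval for the 6 genes (diamonds) and the other tested listed genes (circles), coloured by group. The interval of GAMMA-VPE runs from -1.44 to -0.42, the ATG8 genes all lie to the right of 0 and the other autophagy genes to the left.

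Over the 6 lists together, 36 of 112 entries were tested and 0 passed in either direction (limma), and 4 had an unadjusted p under 0.05, as did 8.78% of all tested probe sets. These 4 were GAMMA-VPE, BETA-VPE, ATG8H and AT2G37840, the last of which was named after its values were seen (-0.38 ± 0.16, SE; adjusted p = 0.56). Of the 36, 13 changes were positive and 23 negative, with a median of -0.099. With 1 array left out, 0 of the 36 passed when it was DEX replicate 1, DEX replicate 2 or mock replicate 1, where 0.815%, 0.956% and 1.15% of all tested probe sets passed. Without mock replicate 2, 14 of the 36 passed, against 16.0% of all tested probe sets.

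**Figure D5:**
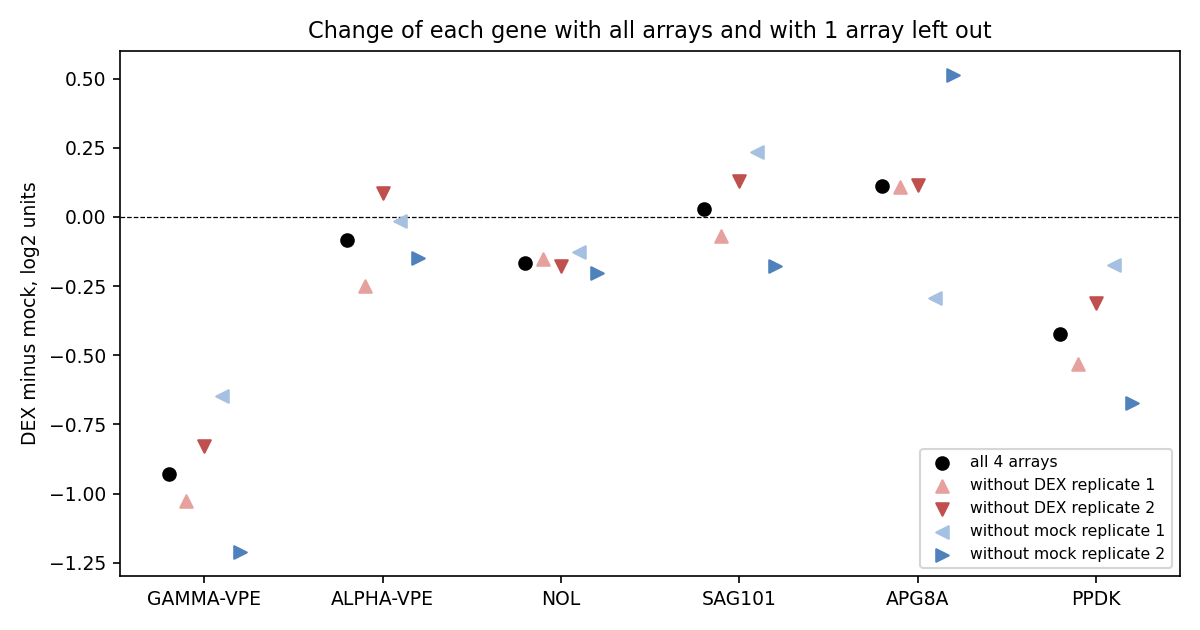
DEX minus mock change in log2 units (vertical axis) of each of the 6 genes with all 4 arrays (black) and with 1 array left out (coloured). GAMMA-VPE stays between -1.21 and -0.65, whereas APG8A moves from -0.29 without mock replicate 1 to 0.51 without mock replicate 2.

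Other genes with the most similar course over the 4 arrays were sought for each of the 6 among 11401 other tested single-gene probe sets, by the Euclidean distance between values centred on each gene's mean. For GAMMA-VPE, whose own course had a size of 1.02 on this scale, they were AT4G29700 (distance 0.13), APS4, an ATP sulfurylase (0.13), and TRM24 (0.14), with changes of -0.99, -0.84 and -0.87. For APG8A, of size 0.58, they were AT5G18850, AT4G10280 and AT2G27290, at distances of 0.017 to 0.039. For PPDK, of size 0.57, they were AT1G64330, CYP71B35 and AT1G75420, at 0.030 to 0.064. ALPHA-VPE was nearest to GH9C3, AT1G20410 and AT2G15110, NOL to SETH5, AT5G61510 and CR4, and SAG101 to PKDM7D, AT5G08560 and AT4G26600. With only 4 arrays such closeness is a description of these samples.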

How the data were processed

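The authors' deposited table holds log2 expression values, 1 per probe set and array. Per the submitters' processing notes they come from GCRMA, which corrects background by probe sequence, applies quantile normalization and summarises probes by median polish. The sources used here give no GCRMA version or setting, and the log2 scale was inferred from GCRMA and from the values (2.59 to 13.62). GCRMA shrinks differences of dim probe sets. Here 64 control probe sets were left out, as were 2863 below 4 on more than 2 arrays. The 19883 others entered a limma 3.58.1 fit (R 4.3.3; eBayes with intensity trend, two-sided, no covariate), with Benjamini-Hochberg adjustment over all of them. The number of arrays, which leaves 2 residual degrees of freedom, limits the precision. SDs are of 2 arrays, and SEs and intervals use the moderated variance.

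Genes were named from the platform annotation, updated through RefSeq (TAIR10.1), which also gave gene lengths. No build goes with the table, so no coordinates are given, and no sequences were used. The 6 genes and the gene lists were chosen with earlier results of these data known. Named were the 6 genes and, per list, all tested genes, or the 6 with the highest mean where over 10 were tested. A gene with several probe sets entered by the one with the highest mean. Alternatives covered filter, normalization, variance model, threshold, replicate block, gene length trend, cross-hybridising probe sets and each array left out.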

Additional observations from a re-analysis of the deposited data

How the results depend on the processing

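With all 4 arrays kept, the 6 genes kept their sign and missed the threshold under no filter, quantile normalization, equal array medians, no intensity trend, robust empirical Bayes, an unmoderated variance, removal of the gene length trend and exclusion of cross-hybridising probe sets, and in the fit as reported none passed at an adjusted p under 0.1 either. With the length trend removed GAMMA-VPE had an adjusted p of 0.085. A fit to genes with a length, trend kept, was added after the data were seen and changed no call. The exception was the replicate block, under which GAMMA-VPE (-0.93, adjusted p = 0.00347) passed, so that 1 of the 6 did, and BETA-VPE too (-0.60, adjusted p = 0.0178). The labels do not say that a number marks a shared batch, the same-numbered arrays deviated together only weakly (r = 0.108 over probe sets), and the block raised calls over the whole table to 438 rises and 237 falls, from 49 and 40. These were 27 and 24 without an intensity trend, 80 and 59 with robust empirical Bayes, 39 and 28 with no filter, and 0 and 0 with an unmoderated variance, by the limma fit. Among genes with a length they were 11 and 9 with the trend kept and 53 and 39 with it removed. With each array left out in turn, 112 to 1803 probe sets rose, 50 to 1388 fell, and 0 to 3 of the 6 genes passing, the 3 being without mock replicate 2. The changes then ranged from -1.21 to -0.65 for GAMMA-VPE, -0.25 to 0.085 for ALPHA-VPE, -0.20 to -0.13 for NOL, -0.18 to 0.24 for SAG101, -0.29 to 0.51 for APG8A and -0.67 to -0.17 for PPDK. The cause was not tested. Signal is lowest for ALPHA-VPE, at 5.06 to 5.40 close to the filter level of 4, where differences are understated.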
